A study of Bos taurus with 6 samples.

Results

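The numbered zinc finger genes are the genes whose symbol is ZNF followed by a number and, in some, 1 further letter. Of the 23475 genes in the table, 287 had such a name, and 233 of these were selected on a mean, taken over all 6 libraries, of 1 FPKM or more. FPKM, the unit of every level given here, counts fragments relative to the length of the transcript and to the total mapped in that library. ZNF449 and ZNF389 had lower means and were added because of their low values in the agomir libraries, so they were chosen by the comparison itself and are described by their values, without a p-value. Both passed the filter of 0.5 FPKM and are among the genes tested in every share of all genes given here. With them the family held 235 genes. Of the other genes with such a name, 16 had a mean from 0.5 to 1 FPKM and 36 had a mean under 0.5 FPKM, 7 of which were listed at 0 in all libraries.

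Most numbered zinc finger genes encode proteins with a row of C2H2 fingers, short folds held by a zinc ion that each read a few bases of DNA. Many of them also carry a KRAB domain, which binds the corepressor TRIM28 and, through it, the histone methyltransferase SETDB1, and so silences transposable elements and genes near the bound site. The genes often arose by tandem duplication and lie in clusters, and a few, such as ZNF423 and ZNF521, are known regulators of the commitment of precursor cells to the adipocyte fate.

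The series compared bovine cells from subcutaneous fat of calves, transfected with the bta-miR-484 agomir or with the bta-miR-484 agomir NC and collected 48 h later, with 3 libraries in each group. Agomirs are synthetic duplexes, stabilized by chemical modification, that mimic a miRNA and so increase its amount, and the agomir NC is the negative control. Both groups received a transfected RNA, and untransfected cells were not among the libraries. The sources used here do not say whether replicate libraries stand for separate calves or for parallel cultures, so p-values measure only the spread between these samples, which may be technical.

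The labels call the cells adipocytes, and the study's text uses both this name and preadipocytes, the precursors of adipocytes. The mesenchymal markers COL1A1 at 5473 to 6364 FPKM, PDGFRA at 162 to 172 FPKM and THY1 at 55.7 to 65.3 FPKM were high in every library, while CD34 was at 0.383 to 0.783 FPKM and DLK1 was listed at 0 in all 6. The markers of mature adipocytes were low: ADIPOQ was at 0.0763 to 0.197 FPKM, PLIN1 at 0.974 to 1.56 FPKM and PPARG at 2.96 to 3.99 FPKM. In these marker genes the cells resembled mesenchymal cells more than mature adipocytes. Whether they were adipocyte precursors or other mesenchymal cells cannot be read from these genes. The endothelial gene PECAM1 and the leukocyte gene PTPRC stayed under 0.2 FPKM, and the myogenic gene MYOD1 was listed at 0. Higher values among markers of other cells were those of ACTA2 at 196 to 220 FPKM, CD14 at 5.85 to 6.45 FPKM, VWF at 2.99 to 3.67 FPKM and NOTCH3 at 2.91 to 3.36 FPKM, with overlapping groups in each. The mesenchymal marker NT5E was at 71.7, 70.6 and 77.5 FPKM under the agomir and 83.1, 89.2 and 89.4 FPKM under its NC, and ENG at 54.2, 53.7 and 54.0 FPKM against 56.3, 58.2 and 56.5 FPKM. Both were lower in all agomir libraries. Of the adipocyte markers, PPARG was at 3.99, 3.69 and 3.91 FPKM against 3.39, 3.34 and 2.96 FPKM and FABP4 at 1.82, 2.33 and 1.54 FPKM against 3.57, 2.21 and 2.88 FPKM. PPARG was higher in all agomir libraries, whereas FABP4 had a lower mean under the agomir with overlapping groups. The summed level of the 8 mesenchymal markers overlapped, at 6624, 6841 and 6304 FPKM under the agomir and 5955, 6730 and 6391 FPKM under its NC, and so did that of the 8 adipocyte markers, at 11.5, 12.3 and 11.4 FPKM against 12.6, 11.02 and 11.1 FPKM. COL1A1 made up most of the mesenchymal sum, so this sum does not reflect NT5E and ENG. The part of these markers in the results below was not tested. In such bulk samples, fewer cells of a type and less RNA per cell cannot be told apart. The depth of the libraries is unknown, because FPKM holds no read numbers.

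The family was expressed at low levels. The mean FPKM of the 233 genes ranged from 1.02 for ZNF331 to 28.8 for ZNF385A, with a median of 3.21 and quartiles of 1.93 and 6.39, against a median of 8.36 FPKM over the 12422 genes tested. The means of 61 members lay from 1 to 2 FPKM, of 88 from 2 to 5, of 63 from 5 to 10, of 12 from 10 to 20 and of 9 at 20 FPKM or more. Together the 233 members took 0.327%, 0.324% and 0.327% of the summed FPKM under the agomir and 0.321%, 0.320% and 0.310% in the agomir NC libraries. All 3 agomir libraries thus lay slightly above all 3 agomir NC libraries in this share, by a margin far smaller than the share itself. No test was made of it. The median FPKM of the members overlapped between the groups, at 3.43, 3.44 and 3.31 FPKM under the agomir and 3.38, 3.32 and 3.25 FPKM under its NC. None of the 233 members was listed at 0 in any library.

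Just inside the threshold stood ZNF331, at 1.01, 0.948 and 1.01 FPKM under the agomir and 1.08, 1.17 and 0.879 FPKM under its NC. ZNF33B followed at 1.06, 0.972 and 1.14 FPKM against 1.27, 1.07 and 0.9498 FPKM. Just outside it, ZNF699 was at 0.976, 0.967 and 1.02 FPKM against 1.12, 1.002 and 0.865 FPKM, and ZNF383 at 0.977, 1.08 and 1.19 FPKM against 0.728, 0.921 and 0.859 FPKM. The groups overlapped in ZNF331, ZNF33B and ZNF699 but not in ZNF383, whose agomir libraries were all higher.

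The members with the highest levels had similar values in both groups. ZNF385A, which encodes an RNA-binding protein and cofactor of p53, was at 32.8, 19.4 and 30.9 FPKM under the agomir and 30.2, 31.0 and 28.6 FPKM under its NC. The low value of agomir replicate 2 set the direction of its mean difference: the log2 fold change, always agomir minus agomir NC on the log2(FPKM + 0.5) scale, was -0.14 with a standard error (SE) of 0.16 over all libraries and 0.088 without this one. ZNF664 was at 26.8, 25.8 and 25.9 FPKM against 25.7, 24.7 and 27.7 FPKM. ZNF358 was at 26.4, 24.9 and 24.6 FPKM against 24.95, 27.8 and 26.0 FPKM. ZNF622, which takes part in the maturation of the large ribosomal subunit, was at 25.6, 24.9 and 22.9 FPKM against 24.5, 22.6 and 24.6 FPKM. In these genes the groups overlapped, and the differences were within the spread between libraries. ZNF503, a regulator of development, was at 23.7, 22.5 and 23.1 FPKM against 21.0, 22.3 and 23.7 FPKM, and its groups overlapped as well.

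The comparison asked how the level of each gene differed between cells with raised bta-miR-484 and control cells. When the p-values of limma were adjusted by Benjamini and Hochberg's procedure for all genes tested, 0 of the 233 members and 0.00805% of all genes, that is 1 of 12422, were under 0.05. The lowest adjusted p that limma gave a member was 0.305, for ZNF451. At an unadjusted p under 0.05, 11 members or 4.72% differed, against 10.9% of all genes tested and 11.2% of the 11373 genes averaging 1 FPKM or more. Of the 11, 6 were higher with the agomir (2.58% of the members, against 6.63% of all genes) and 5 were lower (2.15%, against 4.31%). With median-ratio scaling of the libraries, 3 members were higher and 5 lower, and the split over all genes moved from 824 higher and 535 lower to 673 and 688. Without the variance trend, 12 members were higher and 5 lower, and the split over all genes was 760 and 489. No member combined an unadjusted p under 0.05 with a difference of 1.5-fold or more, which 0.274% of all genes did. The members that differed had mean levels between 2 and 10 FPKM. The 61 members from 1 to 2 FPKM and the 21 members at 10 FPKM or more held none. The share of all genes that differed was not counted by level, so no dependence on level can be read from these 11 members.

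The members' differences were small. Their log2 fold changes ranged from -0.31 for ZNF628 to 0.35 for ZNF469, with a median of 0.020, against 0.013 over all genes tested, and with median-ratio scaling the 2 medians were 0.0085 and -0.00071. The median was 0.031 without agomir replicate 3. In 155 of the 233 members the log2 fold change lay within 0.1 of 0, and in 17 it was over 0.2 in size. It was above 0 in 139 members or 59.7%, against 55.1% of all genes. The 3 agomir libraries were all above the 3 agomir NC libraries in 22 members or 9.44%, against 10.9% of all genes, and all below them in 6 members or 2.58%, against 6.36%. The median size of the log2 fold changes was 0.069 in the members and 0.073 in the genes averaging 1 FPKM or more.

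The precision of the comparison can be read from its intervals. These are on the log2(FPKM + 0.5) scale, which understates the fold change of low genes. The 95% interval of the difference lay within a fold of 1.5 in either direction for 226 members or 97.0%, against 92.9% of all genes. All genes tested, unlike the members, include those from 0.5 to 1 FPKM. The 7 exceptions among the members, named after their values were seen, were ZNF274, ZNF438, ZNF469, ZNF555, ZNF581, ZNF628 and ZNF789. The median width of the interval was 0.47 on the log2 scale. The libraries of a group spread somewhat more in the family than elsewhere: the median within-group SD of the log2 values was 0.115 in the members, 0.0986 in all genes tested and 0.0933 in the genes averaging 1 FPKM or more, and the median standard error was 0.105, 0.084 and 0.080. The part of this wider spread in the members' lower share of calls was not tested. The sets also differed in level, with median means of 3.21 FPKM, 8.36 FPKM and 9.54 FPKM in the same order. The spread was not compared between genes of matched level.

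**Figure D1:**
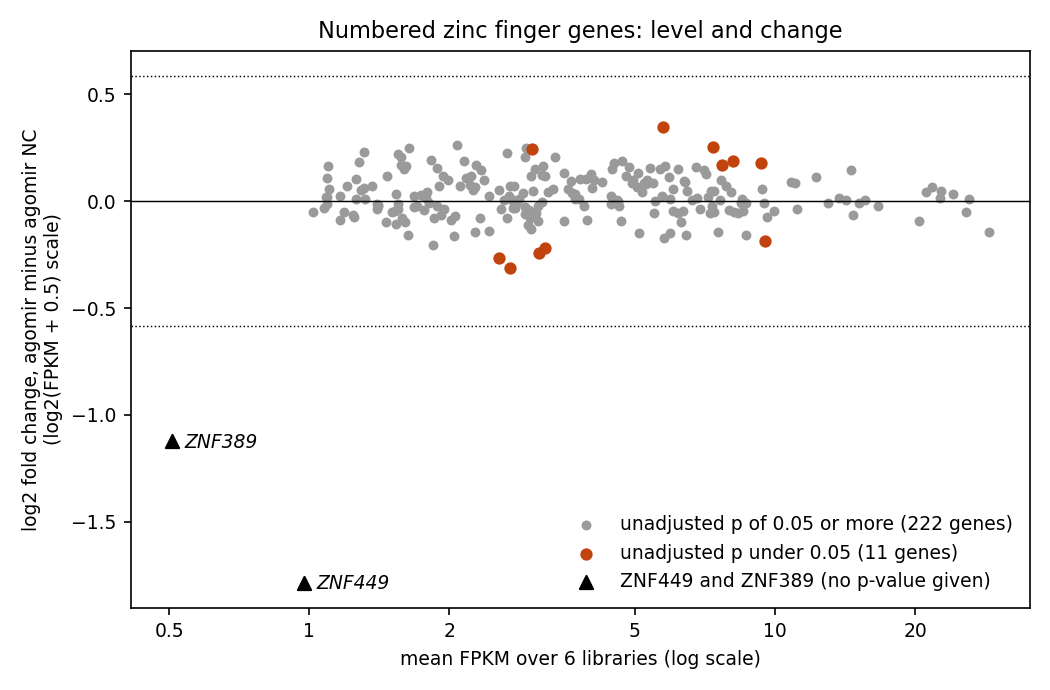
Each point is 1 gene, with its mean FPKM over the 6 libraries on a log scale and its log2 fold change, agomir minus agomir NC, on the log2(FPKM + 0.5) scale. The 233 members lie between -0.31 and 0.35, inside the dotted lines of a fold of 1.5, with the 11 members at an unadjusted p under 0.05 in orange, and ZNF449 and ZNF389, which were chosen by this comparison and are shown without a p-value, lie far below them.

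Among the 6 members that were higher with the agomir at an unadjusted p under 0.05, ZNF451, which encodes a ligase that attaches SUMO to other proteins, had the lowest p. Its levels were 8.32, 7.95 and 7.86 FPKM under the agomir and 6.72, 6.35 and 6.94 FPKM under its NC. Every agomir library lay well above every agomir NC library, and the gap between the groups was wider than the spread within either. The log2 fold change was 0.25 (SE 0.069, with an unadjusted p = 0.00479 and an adjusted p = 0.305 in limma). Of the 11 members it was the 1 that stayed under an unadjusted p of 0.05 whichever of the 6 libraries was left out.

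ZNF473, whose protein takes part in the processing of histone pre-mRNA, was at 3.40, 3.23 and 3.26 FPKM under the agomir and 2.88, 2.46 and 2.78 FPKM under its NC. The agomir libraries lay close together and above the other group, with a log2 fold change of 0.25 (SE 0.094, with limma's adjusted p = 0.400). ZNF335, a component of a histone H3 methyltransferase complex, was at 8.51, 8.56 and 8.97 FPKM against 8.29, 7.52 and 6.91 FPKM. Its groups did not overlap, but agomir NC replicate 1 came near the agomir libraries, and the log2 fold change was 0.19 (SE 0.078, with limma's adjusted p = 0.427). ZNF592, which belongs to a chromatin complex with ZNF687 and ZMYND8, was at 9.36, 10.2 and 10.2 FPKM against 8.53, 9.35 and 8.32 FPKM. Its lowest agomir library and its highest agomir NC library were almost level, and its log2 fold change was 0.18 (SE 0.072, with limma's adjusted p = 0.418). ZNF292 was at 8.23, 8.29 and 7.9997 FPKM against 7.13, 7.62 and 6.91 FPKM. All its agomir libraries were higher, with a log2 fold change of 0.17 (SE 0.068, with limma's adjusted p = 0.415).

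ZNF469, a gene mutated in brittle cornea syndrome and linked to collagen fibres, had the largest positive log2 fold change of the members and is named here after its values were seen. It was at 6.83, 6.72 and 5.89 FPKM under the agomir and 5.93, 5.19 and 3.996 FPKM under its NC. The lowest agomir library lay just under the highest agomir NC library, so the groups overlapped, and agomir NC replicate 3 was lower than all the others. The log2 fold change was 0.35 (SE 0.13, with limma's adjusted p = 0.385), and without agomir NC replicate 3 it was 0.20.

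Of the 5 members that were lower with the agomir at an unadjusted p under 0.05, ZNF394 was at 2.25, 2.30 and 2.27 FPKM under the agomir and 3.21, 2.68 and 2.64 FPKM under its NC. The agomir libraries were almost equal and all below the others, with a log2 fold change of -0.27 (SE 0.10, with limma's adjusted p = 0.401). ZNF213 was at 2.82, 2.83 and 2.76 FPKM against 3.35, 3.86 and 3.05 FPKM. Here too the agomir libraries lay close together below a wider agomir NC group, and the log2 fold change was -0.24 (SE 0.10, with limma's adjusted p = 0.429). ZNF572 was at 3.02, 3.01 and 2.77 FPKM against 3.27, 3.64 and 3.58 FPKM, with all agomir libraries lower and a log2 fold change of -0.22 (SE 0.091, with limma's adjusted p = 0.429). ZNF205 was at 9.82, 8.05 and 8.80 FPKM against 10.3, 10.1 and 10.1 FPKM. Here the agomir libraries were the spread group, and the log2 fold change of -0.19 (SE 0.078, with limma's adjusted p = 0.429) was -0.12 without agomir replicate 2.

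ZNF628, which had the most negative log2 fold change of the 233 members and was also named after its values were seen, was at 2.45, 2.60 and 2.01 FPKM under the agomir and 3.52, 3.13 and 2.51 FPKM under its NC. The groups overlapped, since agomir NC replicate 3 was below agomir replicate 2. The log2 fold change was -0.31 (SE 0.13, with limma's adjusted p = 0.440).

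With median-ratio scaling, ZNF335, ZNF592 and ZNF292 were at an unadjusted p of 0.0529, 0.0503 and 0.0506, and without a filter ZNF628 was at 0.0699. In a fit with a block for replicate number, ZNF335, ZNF292 and ZNF572 were at 0.0553, 0.0541 and 0.0633 in limma. With 1 library left out, all 11 members kept the sign of their log2 fold change, within 0.19 to 0.28 for ZNF473, 0.13 to 0.25 for ZNF335, 0.14 to 0.22 for ZNF592, 0.14 to 0.21 for ZNF292, -0.31 to -0.19 for ZNF394, -0.31 to -0.16 for ZNF213 and -0.26 to -0.18 for ZNF572. The fit then has 2 libraries against 3, so a p above 0.05 does not show a smaller difference. Under 0.05 at an unadjusted p were 3 of the 11 without agomir replicate 1, 3 without agomir replicate 2, 2 without agomir replicate 3, and 5 without each of the agomir NC replicates in turn. The number of members that were lower was 5 with all libraries and also without agomir NC replicate 3, and was 1 or 2 without any other library. Over all genes the number lower was 535 with all libraries, 497, 450 and 450 without agomir replicates 1, 2 and 3, and 595, 533 and 383 without agomir NC replicates 1, 2 and 3, so the count of members did not follow it. The number that were higher was 6 with all libraries and 3 without agomir replicate 3 or without agomir NC replicate 3, where all genes had 824, 651 and 736.

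**Figure D2:**
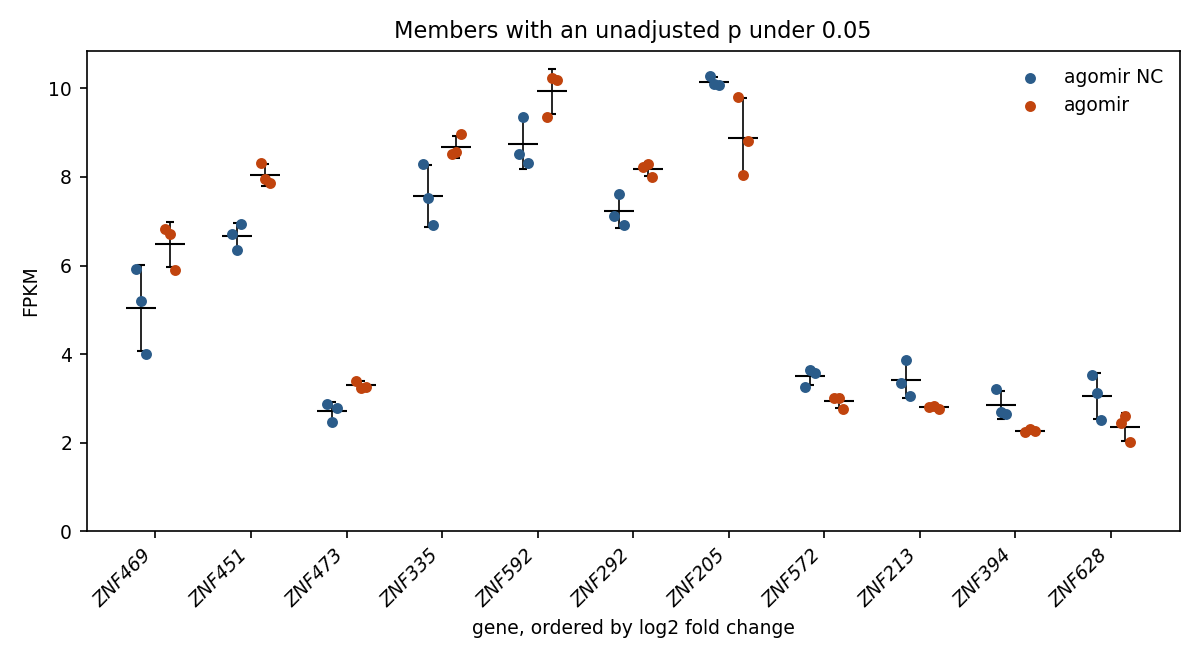
The FPKM of each library is shown for the 11 members with an unadjusted p under 0.05, ordered by log2 fold change, with the agomir NC libraries in blue, the agomir libraries in orange, and the mean and SD of the 3 libraries of each group as lines. The groups are apart in 9 of these genes and overlap in ZNF469 and ZNF628, and the gap is widest relative to the spread in ZNF451.

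ZNF449 and ZNF389 stood apart from the rest of the family, as the way they were chosen requires. ZNF449, which encodes a protein with a SCAN domain and C2H2 fingers, was at 0.0151, 0 and 0.577 FPKM under the agomir and 1.496, 1.88 and 1.88 FPKM under its NC. Agomir replicate 3 held more than the other agomir libraries, and still less than any agomir NC library. ZNF389 was at 0.465, 0 and 0 FPKM under the agomir and 0.878, 0.909 and 0.786 FPKM under its NC. In this gene it was agomir replicate 1 that held a value above 0, so the residual level of the genes lay in different libraries. The log2 fold changes were -1.78 for ZNF449 and -1.12 for ZNF389 with 0.5 added to the FPKM, and -3.22 and -2.42 with 0.1 added, since at such levels the pseudocount sets the size. A value of 0 is what the table lists and may be a failed estimate. In the whole table, 43 genes were at 0 in 1 library or more and at 1 FPKM or more in another. Of the genes tested, 21 had a 0 in any library.

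**Figure D3:**
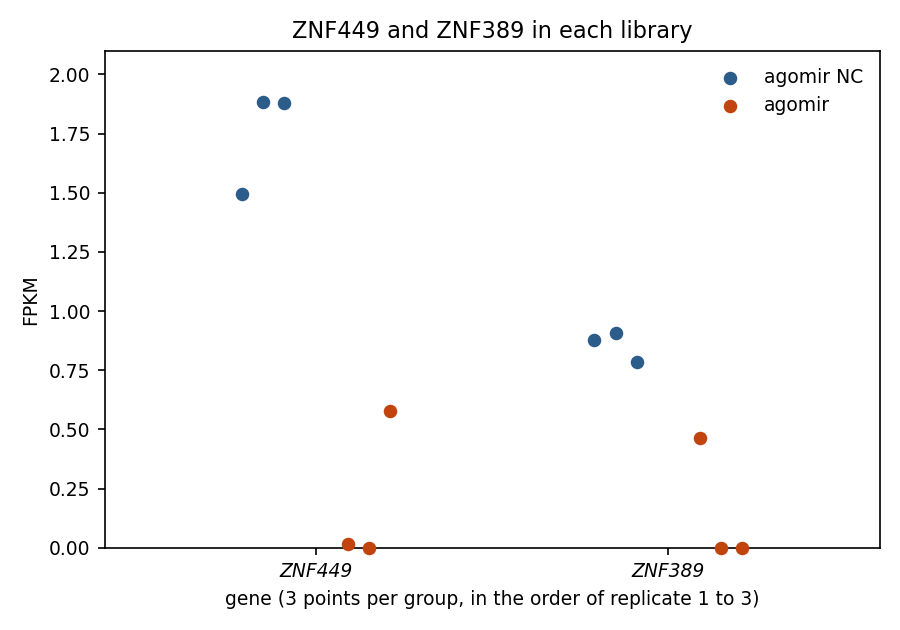
The FPKM of ZNF449 and ZNF389 is shown in each of the 6 libraries, with the agomir NC libraries in blue and the agomir libraries in orange. The agomir libraries of ZNF449 reach 0.577 FPKM and those of ZNF389 reach 0.465 FPKM, below all agomir NC libraries of the same gene, which follows from how these genes were chosen.

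The genes directly beside ZNF389 did not share its pattern. In the RefSeq order of protein-coding genes, its neighbour on one side, ZKSCAN8, another SCAN and zinc finger gene, was at 6.63, 4.91 and 5.36 FPKM under the agomir and 4.26, 4.91 and 3.65 FPKM under its NC. It was higher in agomir replicates 1 and 3, while agomir replicate 2 was level with the highest agomir NC library, and the log2 fold change was 0.36 (SE 0.13, with limma's adjusted p = 0.373). The neighbour on the other side, LOC104975673, was at 0.728, 0.609 and 0.630 FPKM against 0.615, 0.584 and 0.311 FPKM, with overlapping groups. The next gene after ZKSCAN8, ZSCAN16, was at 2.37, 1.53 and 1.91 FPKM against 2.80, 2.21 and 2.22 FPKM, also with overlapping groups. Its log2 fold change of -0.26 (SE 0.15, with limma's adjusted p = 0.551) had the same direction as that of ZNF389. These neighbours were named after their values were seen. ZNF449 was not placed on a chromosome in the RefSeq table used here, so its neighbours were not read.

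Numbered zinc finger genes with a known part in adipocytes held 6 of 7 that were tested, of which 0 were under an unadjusted p of 0.05, against 10.9% of all genes, and the median of their log2 fold changes was 0.033. A list of this size can show little by such a count. ZNF423, which commits precursor cells to the adipocyte fate, was at 5.67, 6.29 and 5.97 FPKM under the agomir and 5.55, 5.32 and 5.12 FPKM under its NC. All agomir libraries were above the others by a small margin, with a log2 fold change of 0.15 (SE 0.077, with limma's adjusted p = 0.516). Its unadjusted p in limma was 0.0785, and 0.0470 without the variance trend. ZNF521, which counteracts ZNF423, was at 5.54, 5.36 and 5.65 FPKM against 5.61, 5.76 and 5.21 FPKM. Its groups overlapped, and agomir NC libraries held both its highest and its lowest value. ZNF516, an activator of the brown fat programme, was at 5.12, 4.70 and 4.67 FPKM against 5.48, 5.69 and 5.05 FPKM. Its groups overlapped slightly, and its log2 fold change was -0.15 (SE 0.082, with limma's adjusted p = 0.554).

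ZNF638, a cofactor of C/EBP proteins in early adipogenesis, was the most abundant of that list, at 21.7, 23.1 and 21.9 FPKM under the agomir and 21.3, 21.7 and 20.7 FPKM under its NC. The groups did not overlap, but the lowest agomir value and the highest agomir NC value were nearly equal, and the log2 fold change was 0.067 (SE 0.051), or 0.041 without agomir replicate 2. ZNF395 was at 6.79, 7.30 and 7.71 FPKM against 7.14, 7.63 and 7.40 FPKM, and ZNF407, a regulator of PPARG target genes, at 2.79, 2.65 and 2.90 FPKM against 2.79, 2.59 and 2.48 FPKM. The groups overlapped in both. ZNF467, which favours the adipocyte over the osteoblast fate, was listed at 0 in all agomir libraries and at 0.0373, 0 and 0.0729 FPKM under its NC, too low to be tested.

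The tested genes of the corepressor machinery that KRAB zinc finger proteins recruit had a median level of 26.9 FPKM, against 8.36 FPKM over all genes tested. Some of them lay below the latter, among them SETDB1 with a mean of 5.80 FPKM. TRIM28 was at 67.9, 66.7 and 65.7 FPKM under the agomir and 70.6, 66.8 and 65.2 FPKM under its NC, with a log2 fold change of -0.015 (SE 0.045) that was 0.018 without agomir NC replicate 1. SETDB1 was at 5.52, 5.87 and 5.96 FPKM against 5.90, 6.36 and 5.22 FPKM. In both genes the groups overlapped. Of the 24 genes of the corepressor list that were tested, 1 was higher (against 6.63% of all genes) and 1 was lower (against 4.31%) at an unadjusted p under 0.05, and the median log2 fold change was 0.00069. These were CHD3 and MTA1, which belong to the NuRD remodelling complex. Other NuRD genes of the list, named after their values were seen, had log2 fold changes of 0.0063 for CHD4, the alternative helicase, 0.0024 for MTA2, -0.0011 for HDAC1, 0.059 for HDAC2, 0.015 for RBBP4 and 0.0027 for RBBP7, so no shared difference of the complex can be read from these members. CHD3, one of its helicases, was at 41.7, 41.3 and 41.7 FPKM against 40.5, 37.9 and 35.4 FPKM, with all agomir libraries higher and a log2 fold change of 0.13 (SE 0.055, with limma's adjusted p = 0.427), which was 0.084 without agomir NC replicate 3. MTA1 was at 16.4, 16.5 and 16.6 FPKM against 19.8, 20.1 and 16.4 FPKM. Its agomir NC replicate 3 lay at the level of the agomir libraries, and the log2 fold change was -0.17 (SE 0.077, with limma's adjusted p = 0.455), or -0.26 without that library. Each gene was above an unadjusted p of 0.05 in 7 of 13 alternatives, 5 of them with 1 library left out, where CHD3 was at 0.0658 to 0.134 and MTA1 at 0.0819 to 0.169. In the remaining 2 for each gene, CHD3 was at 0.0620 with median-ratio scaling and 0.0830 without the variance trend, and MTA1 at 0.0663 without a filter and 0.0834 without the variance trend.

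Members with and without a neighbour of the same name pattern can be set side by side. In the RefSeq gene order, 231 of the 233 members were matched and placed. Of these, 93 lay directly beside another numbered zinc finger gene and are called clustered here. The other 138 did not and are called solitary. Neighbouring zinc finger genes of other names, such as ZKSCAN or ZSCAN, were not counted, so a solitary member may still lie in a zinc finger cluster. The clustered members had lower levels, with a median of 2.62 FPKM, against 4.94 FPKM for the solitary ones, and their median log2 fold change was 0.012, against 0.029. Of the clustered members 0 were higher and 2 were lower at an unadjusted p under 0.05, and of the solitary members 6 were higher and 3 were lower, against 6.63% higher and 4.31% lower of all genes. The 2 clustered members that were lower, ZNF205 and ZNF213, were neighbours of each other and made up a run of their own. The difference between clustered and solitary members was not tested.

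The longest run held 10 numbered zinc finger genes, from ZNF283 to ZNF180, of which 7 were members. Their log2 fold changes ranged from -0.16 to 0.18 with a median of -0.035, and 2 of the 7 were above 0. In the run from ZNF146 to ZNF566, 6 members ranged from -0.11 to 0.23, with a median of 0.068, and 5 of them were above 0. That run held 7 genes, as did the run from ZNF786 to ZNF746, where 6 members ranged from -0.091 to 0.16, with a median of 0.070 and 4 of them above 0. In the remaining run of 7 genes, from ZNF605 to ZNF268, 4 members ranged from -0.087 to 0.029, with a median of -0.00078 and 2 of them above 0. Over all genes, 55.1% were above 0 and 10.9% had an unadjusted p under 0.05. None of the members of these runs had an unadjusted p under 0.05, and in each run the members lay on both sides of 0. Genes in such clusters have similar sequences, and how reads that match several of them were assigned is not given in the sources used here, so the levels of single clustered members are uncertain.

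In the median member, the highest library of the more variable group was 1.24 times the lowest. This ratio was above 1.5 in 29 members, among them the most abundant, ZNF385A, with a ratio of 1.69, and above 2 in 5. The widest spread was in ZNF789, at 1.23, 0.610 and 1.76 FPKM under the agomir and 0.974, 0.875 and 1.53 FPKM under its NC. ZNF555 was nearly as variable, at 0.884, 1.78 and 2.53 FPKM against 2.26, 1.94 and 1.67 FPKM. In both genes the agomir libraries spanned the whole range of the agomir NC libraries, so that no difference could be read from them. ZNF789 and ZNF555 were named after their values were seen.

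Zinc finger genes of other names served as a comparison, as counts and medians, beside 6.63% higher and 4.31% lower of all genes at an unadjusted p under 0.05. Among 35 ZBTB genes, which pair zinc fingers with a BTB domain, 4 were higher and 0 lower at that p, and the median log2 fold change was 0.10. Among 12 ZSCAN and ZKSCAN genes 1 was higher and 1 lower, with a median of -0.034, and among 12 ZFP genes 1 was higher and 0 lower, with a median of -0.0034. The 16 numbered zinc finger genes from 0.5 to 1 FPKM had a median of 0.00064, with 0 higher and 1 lower. The latter was ZNF852, at 0.438, 0.655 and 0.514 FPKM under the agomir and 1.21, 0.675 and 0.835 FPKM under its NC, and it was named after its values were seen. Its groups did not overlap, but agomir NC replicate 2 was almost level with agomir replicate 2, and the log2 fold change was -0.43 (SE 0.18, with limma's adjusted p = 0.421), or -0.28 without agomir NC replicate 1. Differences between these families and the numbered zinc finger genes were not tested.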

How the data were processed

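For 3 agomir and 3 agomir NC libraries, the values used were the FPKM of each gene as deposited by the authors. The submitters' processing notes name fastp, HISAT2, StringTie and the build ARS-UCD1.2, without versions or roles. Whole reads could not be recovered: when the log2 ratios of 1538 low genes were sorted into bins of 0.002, no bin held more than 7.

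Genes averaging 0.5 FPKM or more were taken as log2(FPKM + 0.5), which understates the fold change of low genes. Groups were compared with limma 3.58.1 in R 4.3.3 (variance trend, two-sided, no term for replicate number), with Benjamini-Hochberg adjustment over all 12422 genes. The model was tested on simulated data. Gene order was read from RefSeq for ARS-UCD2.0.

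Members and lists were chosen with earlier results of these data known. The genes named were ZNF449 and ZNF389, the 5 members with the highest mean, members with an unadjusted p under 0.05 and groups that do not overlap, the genes nearest the threshold, the adipocyte list, TRIM28, SETDB1 and corepressor genes with an unadjusted p under 0.05. Others are said to be named after their values were seen. The alternatives were a replicate block, each library left out, median-ratio scaling, no variance trend, other pseudocounts (0.1 and 1) and other filters (none, or an average of 1 FPKM). Protein features were not analysed here, because no protein sequences were used.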

Additional observations from a re-analysis of the deposited data

How the results depend on the processing

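The count of members under an adjusted p of 0.05 in limma was 0 in each of the 13 alternatives, where the lowest adjusted p of a member ranged from 0.269 to 0.516. The number higher at an unadjusted p under 0.05, 6 as reported, was 3 with median-ratio scaling and 12 without the variance trend, and 3 to 7 with 1 library left out. Over all genes it was 824 as reported, 673 and 760 in those settings, and 556 to 828 with 1 library left out. The number lower, 5 as reported, was 1 to 5 with 1 library left out and 4 or 5 otherwise, against 535 over all genes and 383 to 595 with 1 library left out. The causes were not tested. All 11 genes were kept with a pseudocount of 0.1 or 1, without the variance trend and with the filter at 1 FPKM, 10 without a filter and 8 with median-ratio scaling. The median log2 fold change of the members stayed between 0.0085 and 0.031.

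In the fit with a replicate block, 4 members were higher and 4 lower at an unadjusted p under 0.05 (3.43% of members, against 10.1% of all genes, 738 higher and 522 lower), 0 passed the adjustment, and 8 of the 11 were shared. ZNF852 was at an unadjusted p of 0.0566 in limma with this block. Libraries with the same number did not deviate together (correlations across genes of -0.051, 0.053 and 0.039), so the numbers were not taken to pair the libraries.

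Across the alternatives, 367 values of single genes kept their sign and their side of the adjusted threshold or, for genes without a test, moved by less than the spread between libraries. Another 13 changed sign and 4 moved by more than that spread. Only 0 to 2 of all genes tested were under the adjusted threshold in any setting. Keeping a side of it therefore says little about the calls at an unadjusted p. The sign changes were in 7 genes, none of them under an unadjusted p of 0.05 as reported. The log2 fold change of ZNF664 was -0.0065 with median-ratio scaling. With 1 library left out, the log2 fold change ranged from -0.28 to 0.088 for ZNF385A, from -0.028 to 0.052 for ZNF664, from -0.0054 to 0.079 for ZNF622, from -0.039 to 0.028 for ZNF521, from -0.065 to 0.021 for ZNF395, from -0.040 to 0.018 for TRIM28 and from -0.077 to 0.053 for SETDB1. The 4 that moved were ZNF449 and ZNF389 with the other pseudocounts, where a pseudocount of 1 gave -1.23 and -0.71. Both are under a mean of 1 FPKM and had no value with that filter, and ZNF389 fell below the filter of 0.5 FPKM without any single agomir NC library. Without read numbers, the precision that depth gives to the members of 1 to 2 FPKM is unknown.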
